A study of Homo sapiens with 10 samples.

Results

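Unannotated intergenic loci are stretches of the genome where RNA was assembled from the reads but where no gene is named. The members described here were chosen by their name, position and FPKM (fragments per exon length and per mapped fragments of the library). They are the assembled rows of the deposited table that carry an assembly number (XLOC) and no gene name, lie on an autosome more than 5000 bases from every row with a gene name, and reached at least 0.1 FPKM in at least 1 group. This gave 2257 of 30809 assembled genes. A further 47 loci in the same position stayed below 0.1 FPKM. For comparison, 2265 unnamed autosomal loci lay within 5000 bases of a named row, 890 overlapped one, and 15683 rows had a gene name, all at 0.1 FPKM or more.

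Polyadenylated RNA came from HEK293 cells, a human embryonic kidney line, in 5 groups of 2 libraries. siPAP total and control total RNA came from whole cells. siPAP nuclear, LALA nuclear and control nuclear RNA came from the detergent-insoluble nuclear pellet, which is enriched in chromatin and nuclear speckles and lacks soluble nuclear material. siPAP cells were depleted for 3 days of the canonical poly(A) polymerases PAPα (PAPOLA) and PAPγ (PAPOLG) with siRNAs. LALA cells were a stable line, made by recombination into 293ATOA cells, carrying a dominant-negative PABPN1, the poly(A)-binding protein of the nucleus, behind a tetracycline-responsive promoter. Doxycycline held the promoter off during selection of the line, and its removal 3 days before harvest turned the mutant on. The sources name either siRNA-treated control cells or the untreated parental line as the LALA control, so the mutant, the line that carries it and the choice of control cannot be told apart. The siPAP nuclear and LALA nuclear comparisons share their control libraries. LALA RNA was taken from the nuclear fraction only.

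Poly(A) tails protect and promote translation of mRNAs in the cytoplasm. In the nucleus, extension of the tail by poly(A) polymerase, stimulated by PABPN1, can instead mark an RNA for the exosome, the main 3′ to 5′ exonuclease of the nucleus. RNAs from intergenic DNA are often short-lived, poorly spliced and retained in the nucleus. Among them are long noncoding RNAs (lncRNAs), RNAs of enhancers, read-through RNAs and copies of other genes, such as processed pseudogenes, which arose when an mRNA was copied into DNA together with its poly(A) tail.

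The sequences of the shortest members show what kind of locus reached the highest FPKM. All 14 loci under 110 bases matched the transcript of a protein-coding gene elsewhere over 87.0% or more of their length and at 99.0% identity or more. 11 of the 14 matched a ribosomal protein gene, RPL7L1 included. The others matched EEF1A1, a translation elongation factor, EIF4H, a translation initiation factor, and TBCA, a tubulin-folding factor. In 12 of 14 the locus ran past the end of the match by 5 to 14 bases, and in 10 of these 12 every such base was A. The last 30 bases of 6 loci are shown on the strand of the matching transcript, from GRCh37 (hg19), with the bases past the match in capitals and the coordinates of the printed bases.

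XLOC_011379 (RPS7P1, matching RPS7; chr17:26795441-26795470, plus strand): aaaaagtatatattcacagtaAAAAAAAAA
XLOC_007854 (RPL13AP25, matching RPL13A; chr13:55014805-55014834, minus strand): aataaagactgttaattcctcaAAAAAAAA
XLOC_008912 (RPL3P4, matching RPL3; chr14:99439152-99439181, minus strand): aataaaagttattttccactgaAAAAAAAA
XLOC_009630 (RPS3AP47, matching RPS3A; chr15:43407843-43407872, minus strand): ataaaaagtgctatttgtgaAAAAAAAAAA
XLOC_013056 (RPL6P27, matching RPL6; chr18:6462099-6462128, minus strand): taattaaatagctgactacaAAAAAAAAAA
XLOC_022261 (intron of LINC02227, matching TBCA; chr5:157795628-157795657, plus strand): aataaatgagttcatctaataaaaAAAAAA

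The member with the highest FPKM of all had no such tail. XLOC_019650 spans 104 bases inside the processed pseudogene RPL7L1P8 and is 100% identical to RPL7L1, a ribosomal protein L7-like gene, over its whole length. It is shown in full because every base matches.

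XLOC_019650 (RPL7L1P8; chr3:182328452-182328555, plus strand, matched bases in capitals): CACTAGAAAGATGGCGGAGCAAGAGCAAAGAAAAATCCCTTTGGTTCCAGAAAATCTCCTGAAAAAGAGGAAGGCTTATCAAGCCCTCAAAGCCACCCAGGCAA

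Longer members carried other sequence. XLOC_028427, which overlaps an exon of the lncRNA ENSG00000230303, and XLOC_001336, which lies in an intron of CNIH3, were more than 2-fold higher after both treatments. Their last 80 bases are shown with the poly(A) signal letters in capitals. XLOC_020729, a pericentromeric locus on chromosome 4 that was also more than 2-fold higher after both treatments, is shown in full with its longest unbroken TG repeat in capitals.

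XLOC_028427 (chr9:88401036-88401115, plus strand): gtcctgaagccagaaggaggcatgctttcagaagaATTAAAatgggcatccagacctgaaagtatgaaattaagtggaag
XLOC_001336 (chr1:224648317-224648396, plus strand): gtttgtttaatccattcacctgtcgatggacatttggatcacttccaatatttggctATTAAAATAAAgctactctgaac
XLOC_020729 (chr4:49237546-49237728, plus strand): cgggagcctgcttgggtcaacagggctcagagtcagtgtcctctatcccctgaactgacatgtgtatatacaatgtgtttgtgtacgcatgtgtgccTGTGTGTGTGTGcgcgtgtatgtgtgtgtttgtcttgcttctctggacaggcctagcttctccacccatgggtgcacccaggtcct

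The checks on the whole series were as follows. PAPOLA stood at 11.0 FPKM in siPAP total against 79.3 in control total RNA, and at 11.2 FPKM in siPAP nuclear against 61.7 in control nuclear RNA. PAPOLG stood at 3.64 FPKM in siPAP total against 12.2 in control total RNA, and at 4.46 in siPAP nuclear against 10.6 in control nuclear RNA. The row that holds PABPN1, which also carries BCL2L2, stood at 162 FPKM in LALA nuclear against 89.1 in control nuclear RNA. NEAT1, a nuclear lncRNA of paraspeckles, had 54.7 FPKM in control nuclear and 65.7 in control total RNA, and MALAT1, a lncRNA of speckles, 25.4 in control nuclear and 20.4 in control total RNA, so these 2 RNAs were not both higher in the nuclear fraction. The authors state that MALAT1 lacks a poly(A) tail, so in polyadenylated RNA its level is a limited check. The mRNAs ACTB, GAPDH and RPL30 were lower in control nuclear than in control total RNA. They stood at 1193 against 1356, 1102 against 1441 and 1094 against 1568 FPKM. Of 6 markers listed for HEK293, VIM (vimentin) and KRT18 (keratin 18) exceeded 163 FPKM in every group, whereas PAX2 (a kidney transcription factor) was at 0.17 FPKM or less in every group. Of 7 markers of other cell types, HBB (a globin) was listed at 0 in every group, and COL1A1 (a collagen) was the highest, at 1.51 to 1.94 FPKM. The table holds 1 mean per group, so no SD, replicate spread or test is given for any value, library depth was not stated in any source used, and no difference below has a replicate check. In bulk RNA, fewer cells of a type and less RNA per cell cannot be told apart.

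Most members were scarce. Their median level was 0.24 FPKM in siPAP total and 0.15 in control total RNA, and 0.26 in siPAP nuclear, 0.30 in LALA nuclear and 0.17 in control nuclear RNA, whereas rows with a gene name had medians of 7.39 to 7.97 FPKM over the 5 groups. 414 members reached 1 FPKM in at least 1 group and 95 reached 10 FPKM. By group, 281 members had at least 1 FPKM in siPAP total and 229 in control total RNA, and 314 in siPAP nuclear, 336 in LALA nuclear and 240 in control nuclear RNA. 198 members were listed at exactly 0 in at least 1 group. 51 of the zeros fell in siPAP total and 93 in control total RNA. Nuclear RNA had 29 zeros after siPAP, 8 in LALA cells and 87 in control cells.

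The FPKM limit itself was passed in different groups. 1196 members had at least 0.1 FPKM in every group, and 1762 in at least 1 control group. 495 members passed only through a treated group and 19 only through a control group. The 495 had to be higher after a treatment to be members at all, and the loci were assembled from the reads of these same libraries. The members just inside the limit were XLOC_009888 on chromosome 15, XLOC_028853 on chromosome 9 and XLOC_021917 on chromosome 5, each at 0.101 FPKM in its highest group. The loci just outside it were XLOC_012514 on chromosome 17 and XLOC_007849 on chromosome 13, both at 0.099 FPKM, and XLOC_024213 on chromosome 6, at 0.098 FPKM.

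FPKM varied with length. The members spanned 102 to 464733 bases, with a median of 2052. The highest group value had a median of 554 FPKM over the 42 loci under 300 bases, 0.88 over 259 loci of at least 300 and under 1000 bases, 0.30 over 1415 loci of at least 1000 and under 5000 bases, and 0.55 over 541 loci of 5000 bases or more. The loci under 300 bases, 1.86% of the members, held 78.2% of the summed FPKM of all members in siPAP total and 83.5% in control total RNA, and 82.9% in siPAP nuclear, 78.3% in LALA nuclear and 87.0% in control nuclear RNA. A summed or mean FPKM over the members is thus mostly a value of these few loci. FPKM divides by exon length, whereas the lengths given here are those of the whole locus. Reads were 100 bases long, so the shortest loci are barely longer than 1 read. How far length accounts for the differences in FPKM was not tested.

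**Figure D1:**
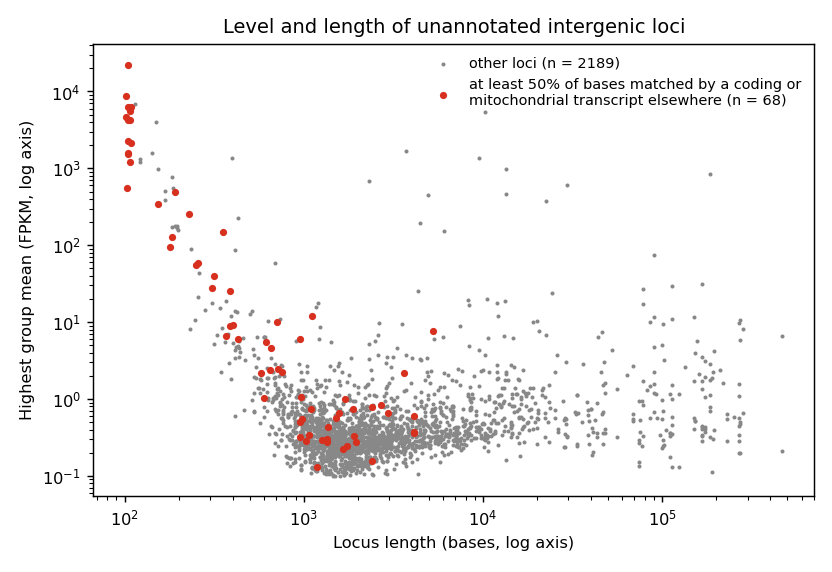
Length of each locus in bases (x axis, log) against its highest group mean in FPKM (y axis, log) for the 2257 members, 1 point per locus. Red points are the 68 loci with at least 50% of their bases matched by a coding or mitochondrial transcript elsewhere, and grey points the other 2189. The loci under 110 bases at the upper left are all red and lie above 500 FPKM.

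Later annotation gave names to many members. In GENCODE release 44, lifted to hg19 and read without strand, 597 members (26.5%) overlapped an exon of a lncRNA, 199 (8.82%) an exon of a pseudogene, 157 (6.96%) an exon of a protein-coding gene and 9 another exon. 502 members (22.2%) lay in introns only, and 793 (35.1%) overlapped no gene. The median distance from a member to the nearest start of a protein-coding gene was 52298 bases. It was 2241 bases for the unnamed loci within 5000 bases of a named row. Both sets were chosen by distance to named rows, so this contrast follows largely from the choice. Some members overlapped such a start, among them XLOC_007791 at LCP1. Median GC content was 41.7% in members and 44.6% in those nearer loci, and the ratio of observed to expected CpG, a mark of CpG islands when high, was 0.20 and 0.29. The poly(A) signals AATAAA or ATTAAA, sought on the plus strand in the last 50 bases and on the minus strand in the first 50, were present in 328 members (14.5%). Windows of the same size 1000 bases outside the loci held them for 262 members (11.6%). AATAAA alone was found at the ends of 9.13% of members and in 6.91% of the outside windows, and ATTAAA at 6.34% and 5.54%. The motifs can overlap, as in XLOC_001336, and a locus with both was counted once for the pair. A match is a description of the letters only.

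siPAP treatment was compared with control in total RNA first. 360 of the members (15.95%) were at least 2-fold higher and 72 (3.19%) at least 2-fold lower in siPAP total than in control total RNA, on the log2(FPKM + 0.1) scale. Over all 21095 autosomal rows at 0.1 FPKM or more, 8.29% were at least 2-fold higher and 2.43% lower. The median log2 change was 0.37 for members, 0.00 for all rows and -0.06 for rows with a gene name. 1584 members (70.2%) were above 0. Because the rule used these same groups, the counts are a description. Among the 1508 members with at least 0.1 FPKM in control total RNA, a set chosen after the values were seen, 158 (10.5%) were at least 2-fold higher, beside 6.14% of all rows with that control level. The share of members at least 2-fold higher depended on the pseudocount, at 1.51% with 1 FPKM and 32.3% with none.

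In nuclear RNA, 435 members (19.3%) were at least 2-fold higher and 57 (2.53%) lower in siPAP than in control, beside 9.81% and 2.53% of all rows. The median log2 change was 0.42 for members, -0.01 for all rows and -0.09 for named rows. With at least 0.1 FPKM required in control nuclear RNA, 232 of 1582 members (14.7%) were higher, beside 7.51% of all such rows. With a pseudocount of 1 FPKM the members' share was 2.35%, and with none 35.5%. The share at least 2-fold lower was the same in members and in all rows to the digits given.

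LALA gave the highest share. 600 members (26.6%) were at least 2-fold higher and 31 (1.37%) lower in LALA nuclear than in control nuclear RNA, beside 13.6% and 0.958% of all rows. The median log2 change was 0.54 for members, -0.03 for all rows and -0.13 for named rows, so relative to named rows the members' values would be higher still. With at least 0.1 FPKM required in control nuclear RNA, 278 of 1582 members (17.6%) were higher, beside 9.67% of all such rows. The members' share was 2.53% with a pseudocount of 1 FPKM and 41.5% with none. The difference between the LALA and siPAP shares was not tested.

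Between the comparisons that use different control libraries, 156 members (6.91%) were at least 2-fold higher both in siPAP total and in LALA nuclear RNA, beside 4.83% of all rows. The shared members were 43.3% of the siPAP total list and 26% of the LALA list, against 58.2% and 35.5% for the same lists over all rows.

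**Figure D2:**
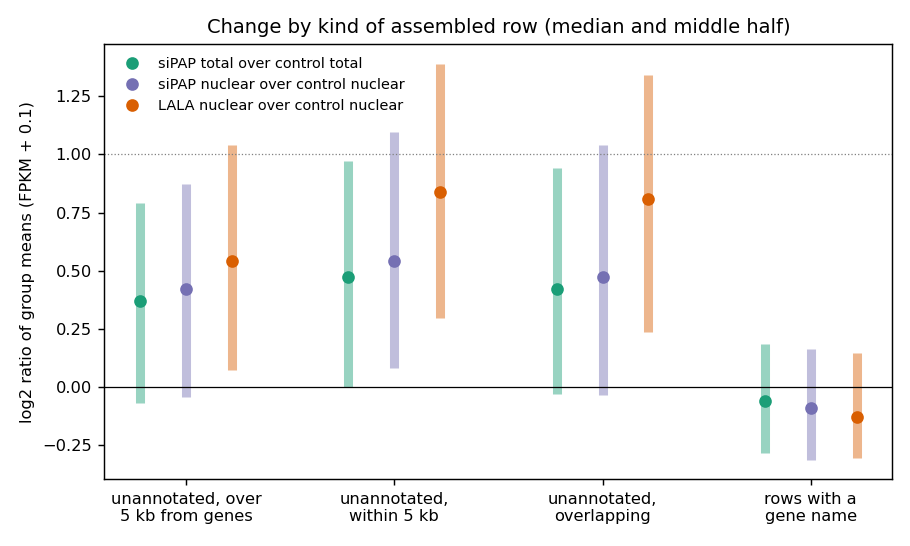
Log2 ratio of group means (y axis, FPKM + 0.1) for 4 kinds of assembled rows (x axis). Points are medians and bars the middle 50% of rows, coloured by comparison, and the dotted line marks a 2-fold increase. The unannotated loci over 5 kb from named genes have medians of 0.37, 0.42 and 0.54, above the named rows and below the unannotated loci within 5 kb, at 0.47, 0.54 and 0.84.

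The LALA share was lower in classes farther from genes, while the siPAP shares varied less, a contrast that was not tested. Unnamed loci within 5000 bases of a named row were at least 2-fold higher than control in 23.8% of cases after siPAP in total RNA, 28.4% after siPAP in nuclear RNA and 43.4% in LALA cells. Among members, those at 5 to 10 kb reached 29.4% in LALA nuclear RNA (503 loci), those at 10 to 50 kb 28.1% (1000 loci), those at 50 to 200 kb 23.8% (488 loci) and those over 200 kb 20.7% (266 loci). The same classes gave 19.5%, 20%, 18.2% and 18.0% in siPAP nuclear RNA and 15.7%, 17.4%, 14.8% and 13.2% in siPAP total RNA. Every class lay above the all-row background of its comparison. The classes include the 495 members that passed the FPKM limit only through a treated group. No share by class was computed for members at that level in control. In LALA nuclear RNA the median log2 change was 0.56 at 5 to 10 kb and 0.48 over 200 kb.

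**Figure D3:**
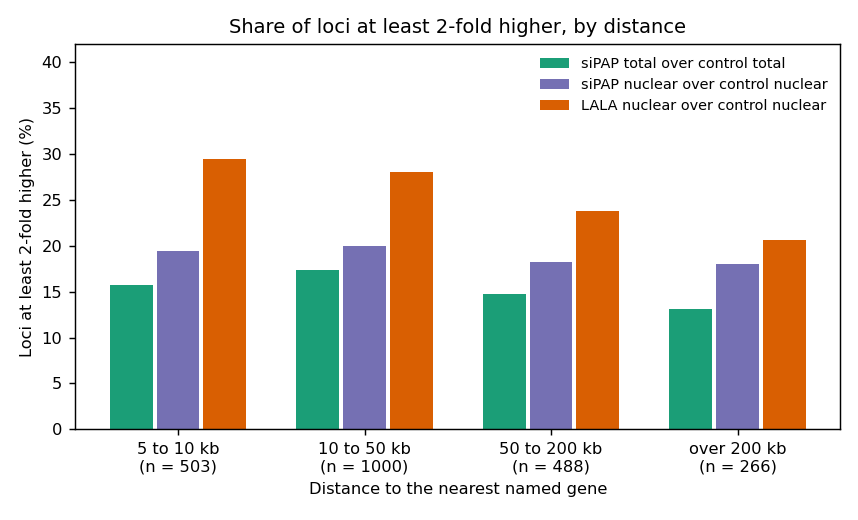
Percent of members at least 2-fold higher (y axis) in 4 classes of distance to the nearest named gene (x axis), coloured by comparison. LALA nuclear bars run from 29.4% in the nearest class to 20.7% in the farthest, and all bars lie above the all-row values of 8.29%, 9.81% and 13.6%. The bars include members that passed the FPKM limit only through a treated group.

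Among the members nearest to a named row were XLOC_011293 (next to CDRT15, chromosome 17) and XLOC_018033 (next to LRRC3, chromosome 21), each just past the limit of 5000 bases. XLOC_011293 had 0.44 FPKM in siPAP total and 0.22 in control total RNA, and 0.38 in siPAP nuclear, 0.37 in LALA nuclear and 0.29 in control nuclear RNA. XLOC_018033 lay between -0.01 and 0.08 on the log2 scale in all 3 treatment comparisons. The members farthest from a named row were neighbours in a desert on chromosome 4, 1123170 bases or more from PCDH18, in or beside the later lncRNA ENSG00000251567. XLOC_021563 (chr4:137310344-137311458) had 0.33 FPKM in siPAP total and 0.033 in control total RNA, and 0.78 in siPAP nuclear, 0.68 in LALA nuclear and 0.13 in control nuclear RNA. XLOC_021564 (chr4:137311715-137316903) had 0.35 FPKM in siPAP total and 0.12 in control total RNA, and 0.49 in siPAP nuclear, 0.75 in LALA nuclear and 0.13 in control nuclear RNA. XLOC_021562 (chr4:137288601-137290239) was lower throughout, with log2 changes of 0.71 and 0.96 for siPAP in total and nuclear RNA and 0.34 for LALA. All 3 loci were above their control in each comparison. XLOC_021562 had 0.018 FPKM in control total and 0.077 in control nuclear RNA. It passed the limit of 0.1 FPKM only through treated groups, so its higher nuclear values after treatment follow from the choice.

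By later annotation, the lncRNA, intronic and gene-free members gave like shares. In LALA nuclear RNA, 168 of 597 members in lncRNA exons (28.1%) were at least 2-fold higher, 138 of 502 in introns only (27.5%) and 222 of 793 in no gene (27.995%). The share was 22.1% of the 199 members in pseudogene exons and 16.6% of the 157 in coding exons. In siPAP nuclear RNA the same classes gave 18.3%, 20.1%, 21.4%, 17.1% and 13.4%, and in siPAP total RNA 15.6%, 17.1%, 17.8%, 11.1% and 11.5%. Median log2 changes in LALA nuclear RNA were 0.52 in lncRNA exons, 0.61 in introns, 0.60 in no gene, 0.46 in pseudogene exons and 0.20 in coding exons. None of these differences between classes was tested. The all-row shares were 13.6% in LALA nuclear, 9.81% in siPAP nuclear and 8.29% in siPAP total RNA. All classes were read with the 495 members that passed the FPKM limit only through a treated group. Median levels in control nuclear RNA were 0.12 FPKM in introns and 0.13 in no gene, near the limit of 0.1. They were 0.24 in lncRNA exons, 0.26 in pseudogene exons and 0.29 in coding exons. Members with a poly(A) signal at an end were at least 2-fold higher in 21.04% of cases in siPAP total RNA, against 15.1% of members without one, and in 28.05% against 26.3% in LALA nuclear RNA.

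A set of loci was higher in all 3 treatment comparisons, siPAP in total and in nuclear RNA and LALA in nuclear RNA. From 187 members of at least 300 bases that were above 0 in every group, had at least 1 FPKM in all 3 treated groups and were not mostly matched by a coding or mitochondrial transcript, the 14 whose smallest log2 change over the 3 treatment comparisons was largest were taken, a choice made after the values were seen. Their values are therefore a description.

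XLOC_028427 (chr9:88396211-88401115, 4905 bases), overlapping the lncRNA ENSG00000230303 and 39267 bases from the start of AGTPBP1, was the highest of them. It had 137 FPKM in siPAP total and 25.8 in control total RNA, and 447 in siPAP nuclear, 245 in LALA nuclear and 57.3 in control nuclear RNA. The log2 changes were 2.40, 2.96 and 2.10. XLOC_006825 (chr12:31331807-31336230), in the transcribed pseudogene ENSG00000177359, had 92.3 FPKM in siPAP total and 24.2 in control total RNA, and 196 in siPAP nuclear, 87.3 in LALA nuclear and 12.1 in control nuclear RNA. Its log2 change was 3.999 in siPAP nuclear RNA and 1.93 in siPAP total RNA. Both loci were thus high in the nuclear fraction of siPAP cells, above siPAP total RNA.

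XLOC_006378 (chr12:89761406-89763299), in an exon of the lncRNA ENSG00000271327 and 15128 bases from the start of DUSP6, a phosphatase of MAP kinases, had 1.54 FPKM in siPAP total and 0.25 in control total RNA, and 1.47 in siPAP nuclear, 1.25 in LALA nuclear and 0.24 in control nuclear RNA. The treated groups thus lay within 1.25 to 1.54 FPKM and the controls at 0.24 and 0.25. XLOC_004415 (chr11:43665710-43674016), in the lncRNA ENSG00000283341 and 28214 bases from the start of HSD17B12, had 13.1 FPKM in siPAP total and 3.82 in control total RNA, and 16.6 in siPAP nuclear, 14.3 in LALA nuclear and 3.99 in control nuclear RNA. XLOC_002234 (chr1:120694645-120697153), 51279 bases from the start of NOTCH2, had 4.29 FPKM in siPAP total and 1.58 in control total RNA, and 5.60 in siPAP nuclear, 4.21 in LALA nuclear and 1.63 in control nuclear RNA. In these 3 loci the total and nuclear levels of control cells were alike.

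XLOC_018794 (chr22:35526164-35627047, 100884 bases), overlapping LINC01399, differed most between the treatments. It had 1.56 FPKM in siPAP total and 0.50 in control total RNA, and 3.26 in siPAP nuclear, 9.58 in LALA nuclear and 0.81 in control nuclear RNA. XLOC_022307 (chr5:173763189-173957098), overlapping LINC01411 and nearest to MSX2, a homeobox transcription factor, had 4.18 FPKM in siPAP total and 1.44 in control total RNA, and 3.81 in siPAP nuclear, 3.42 in LALA nuclear and 0.50 in control nuclear RNA. XLOC_001336 (chr1:224638388-224648396) had 1.11 FPKM in siPAP total and 0.33 in control total RNA, and 1.26 in siPAP nuclear, 2.36 in LALA nuclear and 0.42 in control nuclear RNA. The log2 changes of the other 6, XLOC_011331, XLOC_027876, XLOC_007791, XLOC_019041, XLOC_001396 and XLOC_020525, ranged from 1.28 to 2.33.

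**Figure D4:**
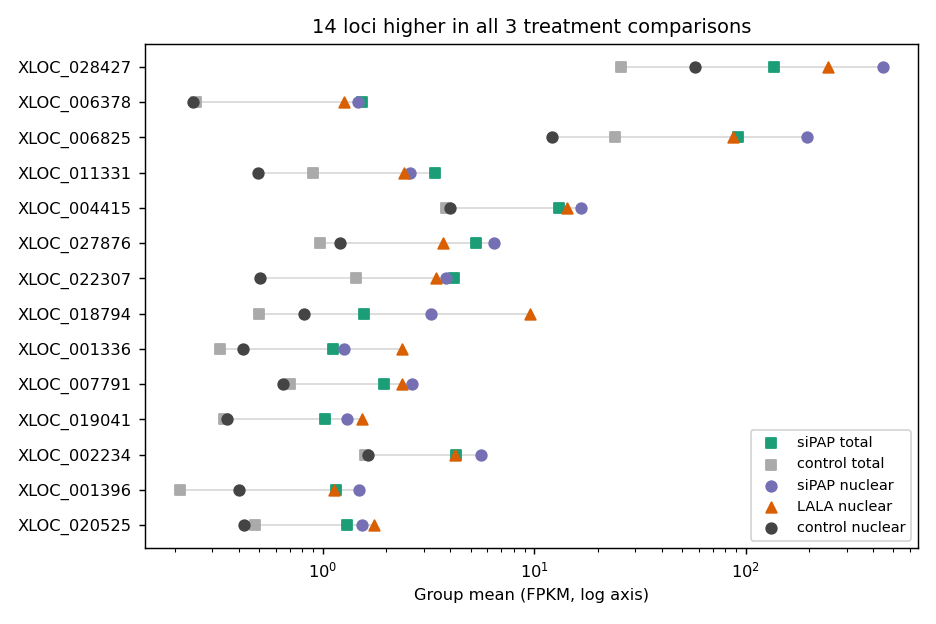
Group means in FPKM (x axis, log) of the 14 loci, 1 row each, with 1 symbol per group. In every row the 3 treated groups lie to the right of the controls, for example at 1.25 to 1.54 FPKM for XLOC_006378, and XLOC_028427 is the highest row at up to 447 FPKM.

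The largest ratios by the fixed rule, among members whose higher group reached 1 FPKM, came mostly from loci listed at 0 in a group. XLOC_018364 (chr22:25658361-25658482, 122 bases) was listed at 888 FPKM in siPAP total and at 0 in control total RNA, but at 1284 in siPAP nuclear, 1324 in LALA nuclear and 969 FPKM in control nuclear RNA. XLOC_007986 (chr14:19706082-19706278), in an intron of DUXAP9, had 180.3 FPKM in siPAP total and was listed at 0 in control total RNA, with 176 in siPAP nuclear, 68.3 in LALA nuclear and 51.7 in control nuclear RNA. XLOC_002248 on chromosome 1 and XLOC_022100 (overlapping CUL1P1) had 7.78 and 2.48 FPKM in siPAP total RNA and were also at 0 in control total RNA only. No fold is given against a group listed at 0.

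XLOC_000837 (chr1:147995699-147995931, 7710 bases from NBPF14) had values in every treated group and none in control. It was listed at 4.998 FPKM in siPAP total RNA and at 8.16 FPKM in the nuclear RNA of siPAP and of LALA cells, and at 0 in both control groups. XLOC_020729 had 128 FPKM in siPAP total and 9.18 in control total RNA, and 175 in siPAP nuclear, 164 in LALA nuclear and 8.87 in control nuclear RNA, a log2 change of 3.78, 4.28 and 4.19. XLOC_026867 (chr7:100100477-100101100, 8052 bases from NYAP1) had 1.31 FPKM in siPAP total and 0 in control total RNA, and 1.58 in siPAP nuclear, 0.74 in LALA nuclear and 0.20 in control nuclear RNA. All 3 were above control in every comparison. They were picked for large treatment ratios, and XLOC_000837 passed the FPKM limit only through treated groups. Their common direction thus follows largely from the choice. The other 4 loci picked for the largest siPAP total ratios, all at 0 in control total RNA, were also above control in both nuclear comparisons. Their log2 changes there were 0.04 to 1.76. This does not hold for every member at 0 in control total RNA, as XLOC_028708 was at 0 in both treated nuclear groups and at 556 FPKM in control nuclear RNA.

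In nuclear RNA the rule also named XLOC_002115, at 2706 FPKM in siPAP nuclear and 0 in control nuclear RNA, and XLOC_009630, at 1195 FPKM in LALA nuclear and 0 in control nuclear RNA. Both are short copies, of RPL7 and RPS3A. XLOC_026885 (chr7:100993810-100994154) stood at 2.27 FPKM in siPAP nuclear, 1.91 in LALA nuclear and 0 in control nuclear RNA, but at 0 in siPAP total and 0.91 in control total RNA. XLOC_008467, which overlaps a pseudogene exon and in part matches RPL26, had 10.6 FPKM in siPAP nuclear, 0 in LALA nuclear and 0 in control nuclear RNA, but 7.82 in siPAP total and 8.35 in control total RNA. XLOC_027495, in an exon of the lncRNA ENSG00000253217, had 2.62 FPKM in LALA nuclear and 0 in control nuclear RNA, with 0.65 in siPAP nuclear RNA, and XLOC_000840 on chromosome 1 had 1.84 FPKM in LALA nuclear and 0 in control nuclear RNA.

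The largest decreases by the rule had a like makeup. In siPAP total RNA, XLOC_002115 (matching RPL7), XLOC_004084 (RPL21), XLOC_020379 (RPL23A) and XLOC_013056 (RPL6) were listed at 0, against 4686, 1565, 827 and 733 FPKM in control total RNA. In siPAP nuclear RNA, XLOC_020379, XLOC_008912 and XLOC_028708 (matching EEF1A1) were at 0, against 2275, 1138 and 556 FPKM in control nuclear RNA. In LALA nuclear RNA, XLOC_003802 (matching RPL7A) and XLOC_028708 were at 0, against 3115 and 556 FPKM in control nuclear RNA, and XLOC_011379 (RPS7) and XLOC_001678, which is fully matched by NBPF15, had 516 and 32.5 FPKM, against 5608 and 234 FPKM. XLOC_000805 (chr1:143283195-143467668) was the exception in length, at 184474 bases. It had 0.64 FPKM in siPAP total and 128 in control total RNA, and 0.51 in siPAP nuclear, 632 in LALA nuclear and 854 in control nuclear RNA, low in both siPAP groups and high elsewhere.

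4 members were at least 2-fold lower in all 3 treatment comparisons, of which 2 share control libraries. 111 members were at least 2-fold higher in all 3. The rule used these same groups, and these counts were not made over all rows. The 4 lower members, named after their values were seen, were XLOC_011379, XLOC_010768, XLOC_010847 and XLOC_020731. XLOC_010768 (chromosome 16, 381 bases) had 0.74 FPKM in siPAP total and 2.16 in control total RNA, and 0 in siPAP nuclear, 0.69 in LALA nuclear and 2.91 in control nuclear RNA. XLOC_010847 (chromosome 16, 671 bases, in no later gene) had 0.09 FPKM in siPAP total and 0.54 in control total RNA, and 0.19 in siPAP nuclear, 0.10 in LALA nuclear and 1.02 in control nuclear RNA. XLOC_020731 shares its coordinates (chr4:49314801-49328159) with XLOC_021304, and the table gives no strand. XLOC_020731 had 70.1 FPKM in siPAP total and 460.0 in control total RNA, and 113 in siPAP nuclear, 89.4 in LALA nuclear and 249.5 in control nuclear RNA. XLOC_021304 was listed at 0 in siPAP total, control total and control nuclear RNA, and had 377 FPKM in the nuclear RNA of siPAP cells and 976 in that of LALA cells. The row lower after treatment and the row present only in treated nuclear RNA thus cover the same stretch of the genome.

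The 14 short copies, chosen after their values were seen, were followed in every group. XLOC_019650 had 7813 FPKM in siPAP total and 10868 in control total RNA, and 22422 in siPAP nuclear, 9375 in LALA nuclear and 10743 in control nuclear RNA. RPL7L1 itself had 149 to 199 FPKM over the 5 groups. XLOC_007854 was listed at 0 in both siPAP total and control total RNA and had 6278 FPKM in siPAP nuclear, 1349 in LALA nuclear and 2275 in control nuclear RNA. RPL13A, its match, had 2180 to 3997 FPKM. XLOC_022261 had 2648 FPKM in siPAP total and 6082 in control total RNA, and 4844 in siPAP nuclear, 8842 in LALA nuclear and 1225 in control nuclear RNA, beside 478 to 625 FPKM of TBCA. XLOC_026561 had 1539 FPKM in siPAP total and 1891 in control total RNA, and 4132 in siPAP nuclear, 6288 in LALA nuclear and 4597 in control nuclear RNA, beside 124 to 241 FPKM of EIF4H. 10 of the 14 short loci were listed at 0 in at least 1 group, while the 14 matched genes were at 124 FPKM or more in every group. Whether fragments of the intact genes were counted at these loci was not tested.

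**Figure D5:**
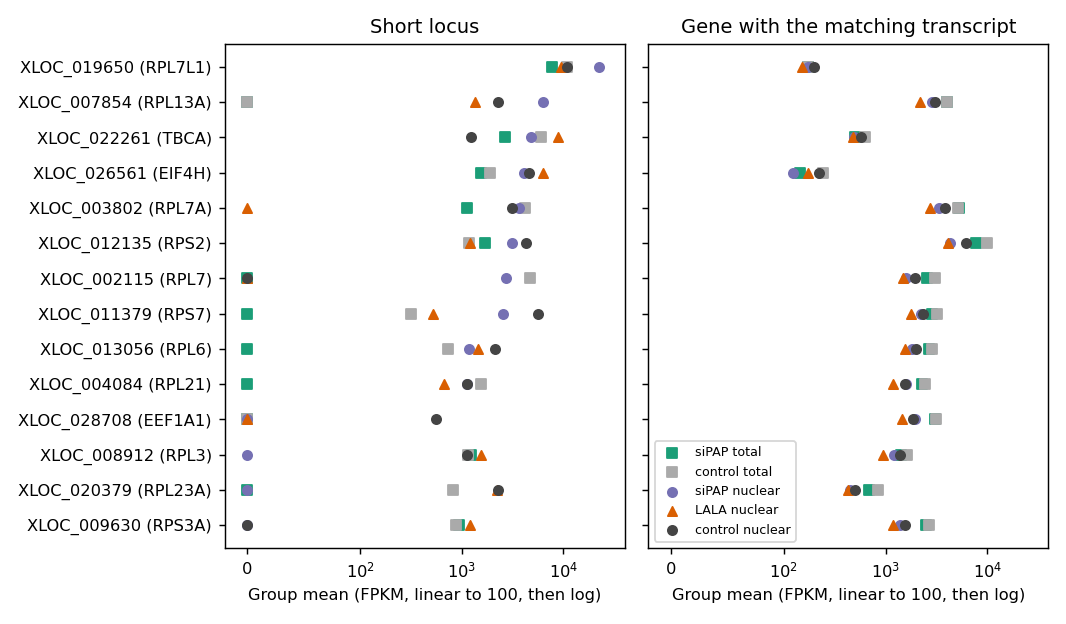
Group means in FPKM (x axis, linear to 100 and then log) of the 14 loci under 110 bases (left) and of the protein-coding gene each matches (right), 1 row per locus, with 1 symbol per group. Left, 10 loci have a group at 0 (symbols at 0 overlap), and values of 1 locus differ widely between groups. Right, no gene has a group at 0, and the groups of RPS2, for example, run from 4079 to 9909 FPKM.

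The values of these loci repeated. In control nuclear RNA, XLOC_004084 and XLOC_008912, both 104 bases long, were each at 1137.56 FPKM, and XLOC_007854 and XLOC_020379, also 104 bases long, were each at 2275.11 FPKM. XLOC_015731 and XLOC_018364, both 122 bases long, were each at 969 FPKM in control nuclear RNA. XLOC_009630 and XLOC_012135, both 107 bases long, were each at 1195 FPKM in LALA nuclear RNA. Whether they stand for the same number of fragments was not tested. Fragment numbers were not stated in any source used, and no counting interval was computed.

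Among the 8 members with the highest FPKM were also a longer locus and a short one with no match to a coding transcript. XLOC_002295 (chr1:148252012-148262268), overlapping exons of NBPF20, had 2515 FPKM in siPAP total and 3325 in control total RNA, and 5418 in siPAP nuclear, 4123 in LALA nuclear and 923 in control nuclear RNA. XLOC_007660 (chr13:19774612-19774725, 114 bases) had 2420 FPKM in siPAP total and 6810 in control total RNA, and 5144 in siPAP nuclear, 1270 in LALA nuclear and 4677 in control nuclear RNA. In XLOC_002295 both treatments lay above control in nuclear RNA and siPAP below control in total RNA, and XLOC_007660 was far below control in LALA nuclear and siPAP total RNA only.

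Sequence copies were few among the members as a whole. 68 members (3.01%) had at least 50% of their bases matched by a coding or mitochondrial transcript elsewhere at 90% identity or more, and 21 of the 42 loci under 300 bases were among them. At least 1053 members (46.7%) held a stretch of at least 100 bases that matched the canonical transcript of any gene elsewhere. The search kept a limited number of transcripts per locus, so this count is a minimum, and how much of it is repeats was not tested. Of 1716 members of at most 5000 bases, 63 (3.67%) held an exact match of at least 100 bases elsewhere in the genome. Without the 68, 350 of 2189 members (15.99%) were at least 2-fold higher than control after siPAP in total RNA, 425 (19.4%) after siPAP in nuclear RNA and 586 (26.8%) in LALA cells. The 68 had median log2 changes of -0.04, 0.01 and 0.11.

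4 members on chromosome 1 were copies of mitochondrial DNA. XLOC_000005 (MTND2P28; chr1:565033-565288) had 32.1 FPKM in siPAP total and 13.2 in control total RNA, and 59.0 in siPAP nuclear, 51.2 in LALA nuclear and 32.1 in control nuclear RNA. XLOC_000008 (MTATP6P1; chr1:569110-570217) had 8.07 FPKM in siPAP total and 10.3 in control total RNA, and 7.84 in siPAP nuclear, 7.68 in LALA nuclear and 12.02 in control nuclear RNA. XLOC_000006 and XLOC_000007 lay between -0.88 and 0.00 on the log2 scale in the treatment comparisons. XLOC_000005 was above control in all 3 treatment comparisons and the others were not. The 4 were named after their values were seen.

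Members often lay side by side. Members within 10000 bases of each other formed 1472 clusters, of which 1027 held 1 member and 37 held 5 or more. The largest, with 11 members over 70623 bases, lay at chr2:176587349-176657971, next to KIAA1715 and in the later gene ENSG00000289349. Its members had a median of 0.27 FPKM in siPAP total and 0.20 in control total RNA, and 0.21 in siPAP nuclear, 0.24 in LALA nuclear and 0.11 in control nuclear RNA. The median log2 change was 0.42, 0.62 and 0.68, though at most 2 of the 11 passed 2-fold in any treatment comparison. The next, with 10 members at chr12:3425433-3470242 between TSPAN9 and PRMT8, had medians of 0.44, 0.41 and 0.65. The medians of both clusters were above 0 in each treatment comparison, with few members past 2-fold.

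The other 3 of the 5 largest clusters had higher levels or mixed medians. The 9 members at chr16:15198158-15231671, beside RRN3 and overlapping the pseudogene PKD1P6 among others, had a median of 6.86 FPKM in siPAP total and 6.72 in control total RNA, and 7.89 in siPAP nuclear, 8.68 in LALA nuclear and 8.67 in control nuclear RNA, with median log2 changes of -0.01, -0.13 and -0.24. The 8 members at chr19:28951091-29218606 near LOC148145 had median log2 changes of -0.23, -0.25 and 0.39, and the 7 members at chr1:142795358-142891009 near ANKRD20A12P had 0.36, 0.23 and 0.15. At these 3 clusters the treatment comparisons gave 1 call at least 2-fold higher, at the chromosome 19 cluster in LALA nuclear RNA. They gave 3 lower calls at the chromosome 16 cluster, 2 for siPAP in nuclear RNA and 1 for LALA, and 2 at the chromosome 19 cluster, 1 in each siPAP comparison. The chromosome 1 cluster had 1 lower call, in siPAP nuclear RNA.

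The longest loci included a pair with little difference between groups. XLOC_011048 and XLOC_011049 share the same 464733 bases (chr16:72234163-72698895), overlapping LINC01572. XLOC_011048 had 4.94 FPKM in siPAP total and 5.10 in control total RNA, and 6.17 in siPAP nuclear, 5.14 in LALA nuclear and 6.59 in control nuclear RNA. XLOC_011049 had 0.18 to 0.21 FPKM over the 5 groups. XLOC_024241 (chr6:77750689-78031696, 140251 bases from HTR1B) had 6.38 FPKM in siPAP total and 2.86 in control total RNA, and 5.58 in siPAP nuclear, 8.22 in LALA nuclear and 6.29 in control nuclear RNA. The exons of these loci are not in the table.

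The fractions were then compared. In control cells, 91 members (4.03%) were at least 2-fold higher and 67 (2.97%) lower in nuclear than in total RNA, beside 2.18% and 1.4% of all rows. The median log2 difference was 0.04 for members and 0.00 for all rows. Among members with at least 0.1 FPKM in control total RNA, the balance turned round, with 2.65% at least 2-fold higher and 4.44% lower in nuclear RNA, beside 1.17% and 1.59% of all such rows. In siPAP cells, 130 members (5.76%) were at least 2-fold higher and 59 (2.61%) lower in nuclear than in total RNA, beside 2.07% and 1.06% of all rows, with medians of 0.11 for members and 0.02 for all rows. Members under 300 bases made up 13 of the 91 and 15 of the 130. The highest control ratios came from loci at 0 in control total RNA, XLOC_007854, XLOC_018364, XLOC_028708, XLOC_007986 and XLOC_002248, and the lowest from loci at 0 in control nuclear RNA, XLOC_002115, XLOC_009630 and XLOC_008467. XLOC_009630 had 0 FPKM in control nuclear and 875 in control total RNA. Most members thus lay within 2-fold between nuclear and total RNA.

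The genes of the decay pathway were read from a list of 25, all measured, in 26 rows at 0.1 FPKM or more. In siPAP total RNA none was at least 2-fold higher and 2 were lower, the targets PAPOLA and PAPOLG. In siPAP nuclear RNA the same 2 were lower and 1 row was higher, and in LALA nuclear RNA none was lower and the same row was higher. That row is the second and lower of the 2 assembled rows of EXOSC4, a subunit of the exosome core, at 0.78 FPKM in siPAP nuclear, 0.89 in LALA nuclear and 0.25 in control nuclear RNA. For the list as a whole, the median log2 change was -0.13 for siPAP in total RNA, and -0.15 in nuclear RNA for siPAP and LALA alike. The row that holds DIS3, an exosome nuclease, and also MZT1 had 73.6 FPKM in siPAP total and 86.1 in control total RNA, and 69.3 in siPAP nuclear, 58.0 in LALA nuclear and 69.2 in control nuclear RNA. ZFC3H1, which links polyadenylated RNA to the exosome, had 44.9 FPKM in siPAP total and 24.6 in control total RNA, and 49.9 in siPAP nuclear, 41.5 in LALA nuclear and 25.3 in control nuclear RNA. Apart from the siRNA targets, the list thus held no gene whose main row passed 2-fold.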

How the data were processed

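Polyadenylated RNA of 10 HEK293 libraries, 2 in each of 5 groups, was sequenced by the authors as stranded paired-end reads. They mapped the reads with TopHat2, assembled transcripts on hg19 with Cufflinks guided by known annotation, and ran Cuffdiff. The FPKM values used are the group means deposited by the authors, 1 per assembled gene and group. The fold changes, test scores, p-values, q-values and significance calls in the same table are results of the authors' own comparisons and were not used. No column of single libraries was present (0 unused).

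Members and lists were chosen with earlier results of these data known. Starts in the table count from 0 (32.1% of named rows then begin at an annotated exon start, against 4.01% otherwise) and are printed counting from 1. Log2 ratios were computed as log2(FPKM + 0.1) of 2 group means, and at least 2-fold means a log2 ratio of 1 or more in size. No test was run, since the table gives no replicates. Groups were assigned from the labels. Named loci were the 8 with the highest FPKM, the 6 largest and 4 smallest ratios of each treatment comparison and the 5 highest and 3 lowest control nuclear over control total ratios at 1 FPKM or more, the 3 nearest and 3 farthest from genes, the 3 on each side of the FPKM limit, the 5 largest clusters and the 3 longest loci. Of these, 1 locus is not reported here. Others are said to be chosen after their values were seen. Marker and decay genes were matched by symbol.

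Sequences were read from GRCh37, whose autosomes are those of hg19, and annotation from GENCODE 44 lifted to it. BLAST+ 2.17.0 found matches to canonical transcripts and the GRCh37 mitochondrial genome (90% identity, 100 bases, or 50 bases for the share of a locus matched, e-value 1e-10) and exact matches of 100 bases in loci of at most 5000 bases. bedtools 2.31.1, samtools 1.23.1 and pandas 2.3.3 were used. Counts of changed loci and the signal search were tested on simulated data, and distances were computed again for a sample of the members. Alternatives changed the pseudocount, the FPKM limit, the distance, the scaling, the joining of loci and the removal of matched or short loci. Repeat content was not analysed here. Library depth: not given in the sources used here.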

Additional observations from a re-analysis of the deposited data

How the results depend on the processing

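No paired analysis was possible because the table holds group means only, so no library could be left out and no replicate block fitted. Of 140 alternative values, 96 stayed within 1.5 times the main one and 44 moved further. Among these values only the medians can change sign, and 0 did.

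The pseudocount set the counts most, as most members lie below 1 FPKM. With a pseudocount of 1 FPKM, the percent of members at least 2-fold higher and lower and the median log2 change were 1.51, 0.93 and 0.085 in siPAP total over control total RNA, 2.35, 0.532 and 0.1015 in siPAP nuclear over control nuclear, 2.53, 0.399 and 0.1418 in LALA nuclear over control nuclear, 0.975, 0.753 and 0.0097 in control nuclear over control total, and 1.55, 0.399 and 0.0312 in siPAP nuclear over siPAP total RNA. With no pseudocount, over members above 0 in both groups, the percent higher and lower were 32.3 and 6.44, 35.5 and 6.46, 41.5 and 3.42, 11.9 and 9.42, and 11.7 and 7.2 in the same order of comparisons.

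With at least 1 FPKM in any group (414 members), the percent higher and lower were 24.6 and 7.49 for siPAP in total RNA, 30 and 5.56 for siPAP in nuclear RNA, 9.18 and 7.25 in control nuclear over control total and 12.6 and 4.83 in siPAP nuclear over siPAP total RNA. The percent lower was 4.11 in LALA nuclear RNA. The median was 0.1076 in control nuclear over control total and 0.2439 in siPAP nuclear over siPAP total RNA.

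With at least 0.1 FPKM in the second group of each comparison, chosen after seeing the data, the percent higher was 10.5 in siPAP total, 17.6 in LALA nuclear, 2.65 in control nuclear over control total and 3.49 in siPAP nuclear over siPAP total RNA. The medians were 0.2265 for siPAP in total and 0.261 in nuclear RNA, 0.352 for LALA and 0.0054 in control nuclear over control total RNA. In control nuclear over control total RNA this set had 4.44 percent lower, more than the percent higher, unlike the full set. It leaves out members low in that group by construction.

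A distance over 50000 bases, scaling to named rows, joining loci to clusters and the removal of members that match a transcript elsewhere moved no share by over 1.5 times. Removal of loci under 300 bases, of copies and of loci with exact matches, also chosen after seeing the data, moved no share or median by that much. Loci well below 1 FPKM have no known count behind them, so the 2-fold counts at that level have no measured error.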
